A study of Mus musculus with 28 samples.

Results

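Amyloid-degrading proteases were read in mouse hippocampal RNA across 8 genotype groups. The 8 genes were listed by name, with earlier results of these data already known: Mme (ENSMUSG00000027820), Ide (ENSMUSG00000056999), Ece1 (ENSMUSG00000057530), Ece2 (ENSMUSG00000022842), Ace (ENSMUSG00000020681), Mmp2 (ENSMUSG00000031740), Mmp14 (ENSMUSG00000000957) and Plat (ENSMUSG00000031538). They are 8 of the 55487 gene IDs in the count tables, and all 8 passed the filter on low counts in both cohorts. Hippocampi came from mice 9 months of age that had been through behaviour tests. The Ripk1 cohort held WT, 5xFAD, Ripk1D138N/D138N and the same mutation together with 5xFAD (written Ripk1 D138N and Ripk1 D138N 5xFAD). The Zbp1 cohort held WT, 5xFAD, Zbp1-/- (Zbp1 KO) and Zbp1 KO 5xFAD. Each cohort had its own WT group, and each genotype had 3 libraries, 24 in all. In 5xFAD mice, an amyloid model, mutant human APP is driven in neurons by the Thy1 promoter, so the peptide to be degraded is human and its supply follows that promoter. The D138N change removes the kinase activity of RIPK1, a kinase of cell death and inflammatory signalling, and ZBP1 is a sensor of Z-form nucleic acids upstream of RIPK kinases. The series asked how the ZBP1 and RIPK1 pathway bears on inflammation in this model.

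Amyloid-beta is removed from the brain partly by proteolysis. Neprilysin (Mme) and the endothelin-converting enzymes (Ece1, Ece2) are zinc peptidases of 1 family that cut small peptides at membranes, and insulin-degrading enzyme (Ide) is a zinc peptidase of the cytosol and of secreted material. Angiotensin-converting enzyme (Ace) and the matrix metalloproteinases Mmp2 and Mmp14 also cleave the peptide, and tissue plasminogen activator (Plat) makes plasmin, which can break down aggregates. Each enzyme has other substrates, among them enkephalins, tachykinins, insulin, endothelins and angiotensin.

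Values are CPM, read counts scaled to a common library total after TMM normalisation within a cohort, and they are not corrected for gene length, so they were compared between libraries and not between genes. A gene was called when its adjusted p in edgeR's quasi-likelihood test (Benjamini-Hochberg over all genes tested) lay under 0.05, and ± after a fold change is the standard error (SE). No label ties the 3 libraries of a genotype to separate mice, so p-values reflect only how far these libraries spread, which may be technical. Libraries held 16624325 to 44801371 counts in the Ripk1 cohort, while those of the Zbp1 cohort held 8362348 (WT 1) to 34640479. Contrasts within a cohort share libraries (the same WT or 5xFAD group enters several), so their values are not independent of each other. Thy1, whose promoter drives the transgenes, lay at 1460 to 2740 CPM in the 12 carrier libraries and at 513 to 662 CPM in the 12 others. Zbp1 was at 0.161 ± 0.199 CPM in Zbp1 cohort WT and at 0.106 ± 0.184 in Zbp1 KO (SD, n = 3), too low in WT to check the knockout, and at 2.41 ± 1.01 in 5xFAD against 0.323 ± 0.0264 in Zbp1 KO 5xFAD. A point mutation cannot be checked in counts. Markers of hippocampal neurons (Prox1, Wfs1, Neurod6 and 4 others) summed to 2630 to 3330 CPM in all 24 libraries. Within that sum 1 of 7 was called lower in 5xFAD of the Ripk1 cohort (Wfs1, -0.56, adjusted p = 0.0215), as were 8.02% of all genes. In carriers of the Zbp1 cohort 2 were called lower (Wfs1, -0.69, adjusted p = 0.00757, and Rbfox3, -0.22, adjusted p = 0.0247), where 4.87% of all genes were called in either direction. Choroid plexus markers ran from 59.1 to 4980 CPM, an 84.3-fold range that was found within genotypes too.

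Mme was the 1 protease called. It was 3.48-fold lower in 5xFAD than in WT of the Ripk1 cohort, and its mean in each of the 4 carrier groups lay below that in each of the 4 non-carrier groups. In Ripk1 cohort WT the 3 libraries had 8.02, 8.13 and 9.20 CPM, in 5xFAD 1.53, 2.45 and 3.15. In Zbp1 cohort WT they had 5.46, 5.79 and 5.95 CPM, in 5xFAD 1.29, 3.42 and 4.93. The ranges did not overlap in either cohort, as for 34.8% of all genes in the Ripk1 and 13.7% in the Zbp1 cohort, and the Zbp1 cohort's 5xFAD libraries were spread more widely. In a bulk sample, fewer Mme-expressing cells and less Mme RNA per cell cannot be told apart.

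The log2 fold change of 5xFAD against WT was -1.80 ± 0.34 in the Ripk1 cohort (95% confidence interval -2.54 to -1.06, adjusted p = 0.00375). This is 1 of 8 proteases called, in a comparison in which 16.1% of all genes tested were called and 8.02% were called lower. In the Zbp1 cohort the value was -0.83 ± 0.36 (-1.60 to -0.06) with an unadjusted p of 0.0373 and an adjusted p of 0.36, so Mme was not called there, and 0 of the 8 proteases were, against 3.13% of all genes. DESeq2 also called 0 of the 8 in that comparison, and Mme alone of the 8 had an unadjusted edgeR p under 0.05, as did 12% of all genes. The 5xFAD effect in the Ripk1 cohort less that in the Zbp1 cohort was -0.99 ± 0.52 (adjusted p = 0.585), so a difference between cohorts did not pass the test. No gene of 22565 passed that test in edgeR, 2063 had an unadjusted p under 0.05, and DESeq2 called 30. The authors' deposited table gave Mme a log2 fold change of -1.81 (adjusted p = 1.55e-07) in the Ripk1 cohort, and the authors' deposited table for the Zbp1 cohort gave -0.83 (adjusted p = 0.222).

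Markers of neocortex and subiculum moved with Mme. Of this list of 7 genes 0 were called higher and 2 lower in 5xFAD of the Ripk1 cohort, where 8.02% of all genes were called lower. Among the 2 was Rorb, a nuclear receptor of cortical layers (-0.62, adjusted p = 0.0259). The 7 genes had a median of -0.77, against 0.02 over all genes. Their summed level was 363 to 394 CPM in WT and 200 to 241 in 5xFAD, again without overlap. With that level as a covariate, an alternative added after these values were seen, Mme fell short of the threshold in edgeR (-1.05, adjusted p = 0.134). The groups do not overlap in the covariate, so its part in the result and that of genotype cannot be told apart. In the Zbp1 cohort 0 of the 7 were called, the sum was 238 to 371 CPM in WT and 230 to 297 in 5xFAD (2 had an unadjusted p under 0.05, against 12% of all genes), and the Mme value with the covariate was -1.0 (adjusted p = 0.275). No marker of the 7 was at 0. Of 5 thalamus and habenula markers, 2 were called lower in the Ripk1 cohort (Slc17a6, a vesicular glutamate transporter, -1.93, and Rora, a nuclear receptor, -0.72). In the Zbp1 cohort 1 was called lower (Slc17a6, -1.42), where 3.13% of all genes were called in either direction. There the list median was 0.18 and the summed levels overlapped (102 to 134 CPM in WT, 101 to 124 in 5xFAD). Of 7 interneuron markers Gad1 (-0.65) and Gad2 (-0.94), the enzymes of GABA synthesis, were called lower in the Ripk1 cohort. The sum of the 7 was 583 to 893 CPM in WT and 424 to 573 in 5xFAD. In the Zbp1 cohort 0 of the 7 were called, and the sum was 578 to 677 CPM in WT and 461 to 523 in 5xFAD, without overlap. The part of the thalamus, habenula and interneuron markers in the Mme result was not tested.

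**Figure D1:**
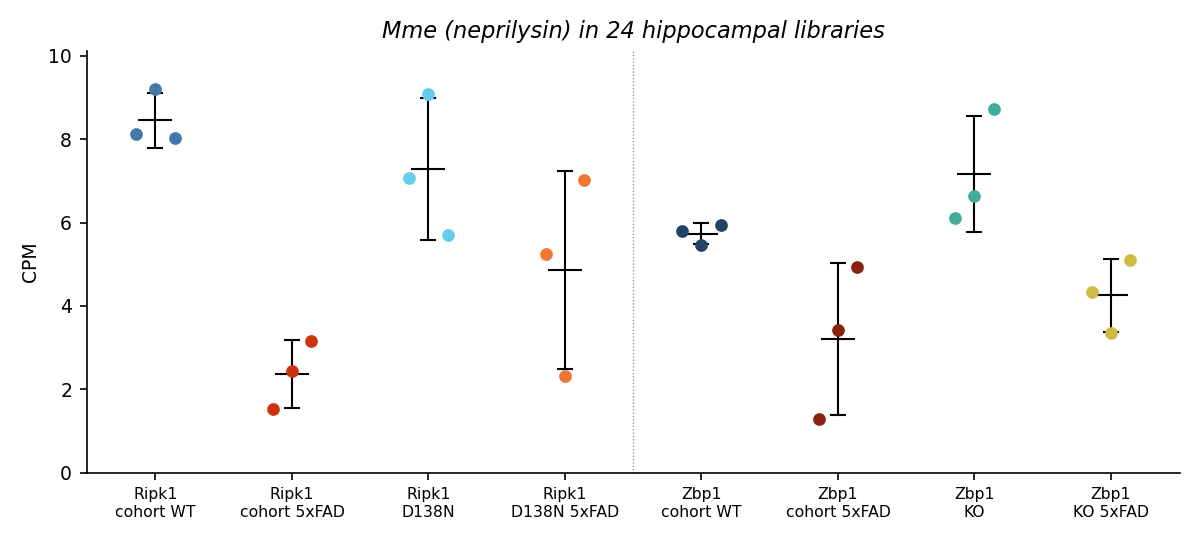
Mme CPM (vertical axis, linear from 0) in each of the 24 hippocampal libraries by genotype group (horizontal axis, 3 points per group; a dotted line parts the cohorts). Bars give the mean and SD. The 3 5xFAD libraries of the Ripk1 cohort lie at 1.53 to 3.15 CPM, below the WT libraries at 8.02 to 9.20, and Ripk1 D138N 5xFAD spans 2.31 to 7.01.

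On the mutant backgrounds Mme was also lower in carriers on average, and the differences did not pass the test. Ripk1 D138N libraries had 5.70, 7.08 and 9.08 CPM and Ripk1 D138N 5xFAD libraries 2.31, 5.25 and 7.01, so the 2 ranges overlapped and 1 library (Ripk1 D138N 5xFAD 2) sat within the range of 5xFAD. Zbp1 KO libraries had 6.10, 6.63 and 8.73 CPM, and Zbp1 KO 5xFAD libraries 3.35, 4.33 and 5.10, without overlap, as for 21.4% of all genes. The log2 fold changes were -0.57 ± 0.33 (adjusted p = 0.476) with Ripk1 D138N and -0.75 ± 0.35 (adjusted p = 0.661) with Zbp1 KO. In these comparisons 0 of 8 proteases were called by edgeR or DESeq2, none had an unadjusted edgeR p under 0.05, and 3.37% and 1.23% of all genes were called. Over 6 carrier and 6 non-carrier libraries Mme fell in the Ripk1 cohort (-1.19 ± 0.24, adjusted p = 0.00346; 1 of 8 proteases, background 18.9% called and 9.21% called lower), with ranges that overlapped, and the call was lost with the neocortex and subiculum covariate (-0.73, adjusted p = 0.0946). In the Zbp1 cohort the same average was -0.79 ± 0.25 (unadjusted p = 0.00726, adjusted p = 0.106; 0 of 8 proteases, background 4.87%), and every carrier library lay below every non-carrier library, as did 1 of 8 proteases and 3.7% of all genes in either direction. DESeq2 called that difference (adjusted p = 0.0294), with 1429 of 22876 genes called. So did edgeR with the choroid plexus level as a covariate (-0.97, adjusted p = 0.0444) and edgeR with the replicate number as a block (-0.82, adjusted p = 0.0408).

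Mme was 2.02-fold higher in Ripk1 D138N 5xFAD than in 5xFAD on average (log2 1.01 ± 0.34, 0.27 to 1.75) with an unadjusted p of 0.011, and the adjusted p of 0.295 did not pass. Its ranges overlapped through Ripk1 D138N 5xFAD 2; without that library the value was 1.33 with an adjusted p of 0.0269. That library also had the lowest neocortex and subiculum sum of its group, 160 CPM against 350 and 356, and with the sum as a covariate the value was 0.59 (adjusted p = 0.606). In this comparison edgeR called 0 of 8 proteases and 0.365% of all genes, and 2 of the 8 (Mme and Ide) and 12.3% of all genes had an unadjusted p under 0.05. DESeq2 called Ide, with 272 of 15758 genes called. The interaction, which is the 5xFAD effect with Ripk1 D138N less that without it, was 1.23 ± 0.47 for Mme (unadjusted p = 0.0212, adjusted p = 0.656); 0.0281% of genes passed it. The authors' deposited table gave 5xFAD over Ripk1 D138N 5xFAD as -1.02 (adjusted p = 0.0619) and carries the mark "Down" for it. Zbp1 KO 5xFAD against 5xFAD gave 0.40 ± 0.36 (-0.36 to 1.16, adjusted p = 0.745), and the interaction 0.08 ± 0.50 (-0.99 to 1.15). In the absence of 5xFAD the values were -0.21 ± 0.32 for Ripk1 D138N and 0.32 ± 0.35 for Zbp1 KO, neither called.

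The genes whose log2 CPM, centred on each cohort's mean, followed Mme most closely over the 24 libraries were Lmbrd1 (Pearson r = 0.86), Gmps (0.86), Flrt2 (0.85), Peg13 (0.85) and St6gal2 (0.85), of 20680 genes. These points share libraries, genotypes and dissections, and the r is a description. All 5 fell in 5xFAD of the Ripk1 cohort, by 0.33 (Lmbrd1) to 0.65 (Flrt2) on the log2 scale, where 8.02% of all genes were called lower. They were picked for following Mme over these same libraries, so a fall with Mme was built into the choice and is no separate evidence. Peg13 also fell in the Zbp1 cohort (-0.37, adjusted p = 0.0207), and the other 4 were not called there.

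**Figure D2:**
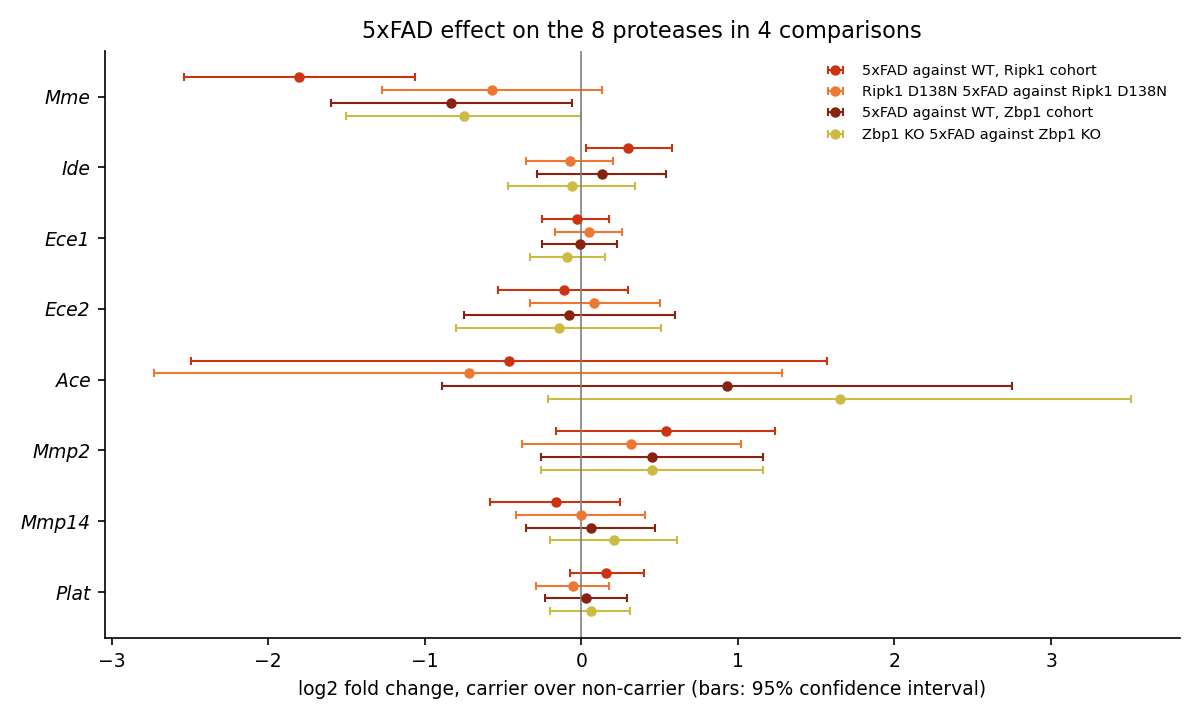
Log2 fold changes of carriers over non-carriers (horizontal axis) for the 8 proteases (vertical axis) in 4 comparisons, 1 colour each; points are edgeR estimates and bars 95% confidence intervals. Mme at -1.80 in the Ripk1 cohort was the 1 value called, the intervals of Ace were the widest, and those of Ece1 stayed between -0.33 and 0.26.

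Ece1 and Ece2, the endothelin-converting enzymes of the neprilysin family, showed no difference past the threshold in any comparison. Ece1 lay at 43.8 to 56.5 CPM in the Ripk1 cohort, with 44.7 to 57.0 for the Zbp1 cohort, with all 8 groups overlapping their neighbours. Its 5xFAD effect was -0.03 ± 0.10 (-0.25 to 0.18) in the Ripk1 cohort, with -0.01 ± 0.11 (-0.25 to 0.23) for the Zbp1 cohort, both intervals ending well above the value of Mme in the Ripk1 cohort. Ece2 lay at 2.90 to 8.21 CPM over the 24 libraries. Its effects were -0.11 ± 0.19 (-0.53 to 0.30) and -0.08 ± 0.31 (-0.75 to 0.60), and those on the mutant backgrounds 0.08 ± 0.19 and -0.14 ± 0.31. The 2 lowest values, 2.97 and 2.90 CPM, came from WT 2 and 5xFAD 2 of the Zbp1 cohort, which were also the 2 libraries lowest in the nuclear RNA Malat1 (994 and 791 CPM against 1940 CPM or more in the other 22). Without these 2 libraries no protease other than Ace changed its call in the Zbp1 cohort.

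Ide split the libraries into levels that followed genotype only in part. Ordered by CPM, 12 libraries had 51.6 to 67.4, then came a gap of 12.6, then 7 libraries with 80.0 to 89.3, a gap of 25.7, and 5 libraries with 115 to 124. The highest 5 were the 3 Zbp1 KO libraries (115, 117 and 117) and 2 of Zbp1 KO 5xFAD (both 124); the third, Zbp1 KO 5xFAD 1, had 86.6. All 3 Ripk1 cohort 5xFAD libraries (80.0, 86.9 and 87.5) sat in the middle level and all 6 Ripk1 D138N libraries, with and without 5xFAD, in the lowest (55.8 to 67.4). Both WT groups held libraries of the lowest and the middle level: WT of the Ripk1 cohort had 54.8, 65.3 and 86.0 CPM, and WT of the Zbp1 cohort 51.6, 60.2 and 86.8. Zbp1 cohort 5xFAD did so too, with 59.3, 66.8 and 89.3.

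Zbp1 KO against WT gave Ide a log2 fold change of 0.83 ± 0.19 (0.41 to 1.24), without overlap, with an unadjusted p of 0.000743 and an adjusted p of 0.942. No gene passed in that comparison in edgeR (0%), 779 genes had an unadjusted p under 0.05, Ide being the 1 protease among them, and DESeq2 called 1 gene and 0 proteases. Ranges without overlap were found for 2 of the 8 proteases, Ide and Mme, and for 11.8% of all genes. Zbp1 KO 5xFAD against 5xFAD gave 0.63 ± 0.19 (unadjusted p = 0.00498, adjusted p = 0.437), again with no gene called in edgeR (0%), 1875 genes at an unadjusted p under 0.05 and 154 genes, none of them a protease, called by DESeq2. Ripk1 D138N 5xFAD against 5xFAD gave -0.50 ± 0.13 (unadjusted p = 0.0017, adjusted p = 0.185), without overlap, as did 1 of 8 proteases and 15.1% of all genes. DESeq2 called Ide there (adjusted p = 0.0209), with 272 of 15758 genes called. The 5xFAD effect was 0.30 ± 0.13 (adjusted p = 0.129) in the Ripk1 cohort and 0.13 ± 0.19 (adjusted p = 0.891) in the other cohort. The first of these turned on 1 library: without WT 2 it was 0.50 with an adjusted p of 0.00831.

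The gene that followed Ide most closely over the 24 libraries was Btaf1 (r = 0.92 of log2 CPM centred by cohort), which encodes a regulator of TATA-binding protein and lies 3 protein-coding genes from Ide on chromosome 19. It was followed by Gm8850 (0.71), Wdfy1 (0.71), Fgfbp3 (0.70) and Gm12758 (0.69). Fgfbp3, a carrier protein of fibroblast growth factors, lies next to Btaf1, 4 genes from Ide. The 5 libraries highest in Ide had 81.4 to 98.9 CPM of Btaf1, above the 72.9 CPM that the other 19 did not pass. Fgfbp3 did not set them apart: they had 8.23 to 10.6 CPM, and 5xFAD 2 of the Ripk1 cohort, in the middle Ide level, had 11.1. Zbp1 KO against WT gave Btaf1 0.68 ± 0.19 and Fgfbp3 0.42 ± 0.21, neither called, and Ripk1 D138N 5xFAD against 5xFAD gave -0.25 ± 0.11 and -0.70 ± 0.21, neither called. The neighbours were picked after the values of Ide were seen, as the 5 protein-coding genes on each side in RefSeq's order (GRCm38.p6), and the other tested ones had lower r: Cpeb3 (0.16) and March5 (-0.34), which lie between Btaf1 and Ide, Tnks2 (0.33), Kif11 (0.07), Hhex (-0.12), Exoc6 (-0.39) and Cyp26a1 (0.31). As background, a copy-number variant that holds Ide and Fgfbp3 is known among C57BL/6J mice. The labels give no strain and copy number was not measured, so its part in these levels was not tested.

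**Figure D3:**
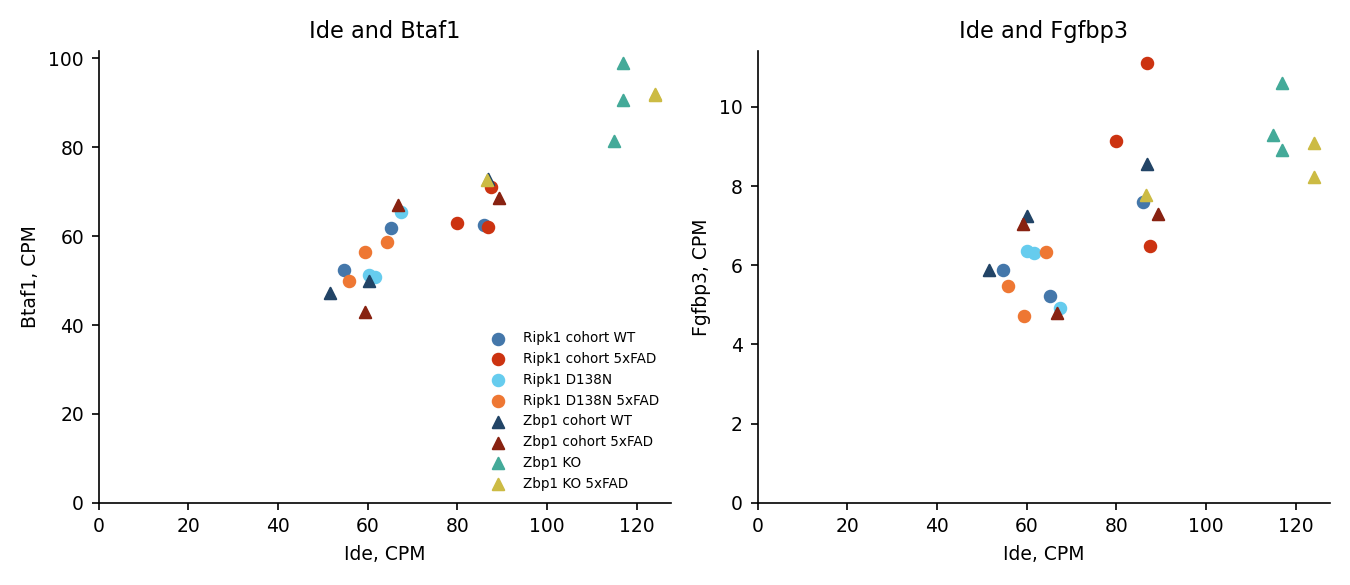
Ide CPM (horizontal axes) against Btaf1 CPM (left) and Fgfbp3 CPM (right) in 24 libraries, coloured by genotype, circles for the Ripk1 and triangles for the Zbp1 cohort; axes are linear from 0. Ide has 12 libraries up to 67.4, 7 from 80.0 to 89.3 and 5 from 115 to 124, and the 5 highest are also highest in Btaf1.

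Ace, the peptidase that makes angiotensin II and is abundant in choroid plexus epithelium, followed the choroid plexus content of the libraries. In ascending order its 3 values were 13.8, 32.3 and 95.4 CPM in Ripk1 cohort WT and 10.5, 26.8 and 65.4 in 5xFAD. They were 11.8, 121 and 121 in Ripk1 D138N and 6.84, 53.8 and 92.8 in Ripk1 D138N 5xFAD. All 4 groups overlapped over most of their range. Zbp1 cohort WT had 11.4, 11.8 and 86.1 CPM and 5xFAD 11.3, 68.7 and 133. Zbp1 KO had 12.6, 17.4 and 36.5 and Zbp1 KO 5xFAD 18.1, 93.1 and 97.0. Here too all 4 groups overlapped, and Zbp1 KO had the narrowest range.

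Log2 CPM of Ace correlated with the log2 summed CPM of 10 choroid plexus markers (Ttr, Kl, Folr1 and 7 others) over the 12 libraries of each cohort. Pearson's r was 0.94 in the Ripk1 cohort (permutation p = 4e-05, adjusted over 16 relations 0.00064) and 0.94 in the Zbp1 cohort (0.00013, adjusted 0.00104). Spearman's rho was 0.92 (permutation p = 0.0001, adjusted 0.0016) and 0.85 (0.00077, adjusted 0.00616). Without the 2 libraries farthest from the median of the marker sum r was 0.96 and 0.95. The 16 relations were those of the 8 proteases in 2 cohorts, and of the rest only Ece1 in the Zbp1 cohort passed by both measures (r = -0.82, permutation p = 0.00142, adjusted 0.00757; rho = -0.76, permutation p = 0.00545, adjusted 0.0291; r = -0.77 without the 2 farthest). The genes most like Ace were Slc2a12 (0.99), Col8a1 (0.99), Abca4 (0.98), Enpp2 (0.98) and Kl (0.98), of which Kl is on the marker list and Enpp2 is known as a major product of choroid plexus.

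Ace was called in no comparison. The 5xFAD effect was -0.46 ± 0.94 (-2.49 to 1.57) in the Ripk1 cohort, with 0.93 ± 0.85 (-0.89 to 2.75) for the Zbp1 cohort, and 1.65 ± 0.87 (-0.21 to 3.51, adjusted p = 0.762) with Zbp1 KO. Leaving out 1 library moved the first from -1.38 (without 5xFAD 2) to 0.57 (without WT 2) and the second from 0.10 (without 5xFAD 3) to 2.63 (without WT 2), none of them called. Choroid plexus markers stood at a list median of 1.85 with Zbp1 KO, 0 of 10 called, with summed levels of 142 to 1390 CPM in Zbp1 KO and 384 to 2960 in Zbp1 KO 5xFAD. With the choroid plexus level as a covariate the 3 values were -0.32, 0.49 and 0.43, none called. Averaged over the backgrounds of the Zbp1 cohort Ace was 1.29 ± 0.61 higher in carriers (adjusted p = 0.339), a value that passed without WT 2 (2.14, adjusted p = 0.0415) and fell to 0.46 with the covariate (adjusted p = 0.334).

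**Figure D4:**
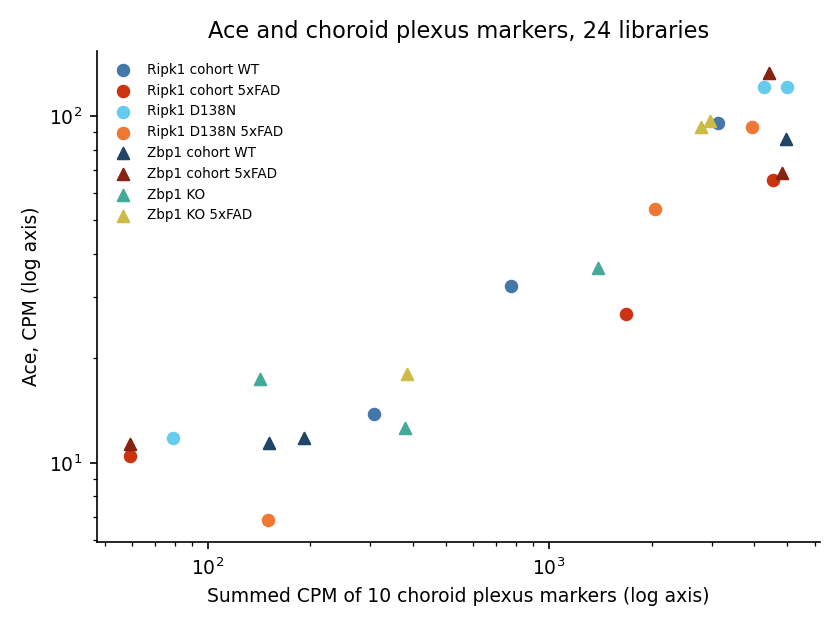
Ace CPM against the summed CPM of 10 choroid plexus markers, both on log axes, in 24 hippocampal libraries coloured by genotype (circles: Ripk1 cohort, triangles: Zbp1 cohort). Marker sums run from 59.1 to 4980 CPM and Ace from 6.84 to 133 CPM, rising together in both cohorts, with genotypes mixed along the line.

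Mmp2 (gelatinase A) and Mmp14 (the membrane enzyme that activates it) were read as a pair. Mmp2 stood at 3.87 ± 0.858 CPM in Ripk1 cohort WT and 5.64 ± 1.12 in 5xFAD (SD, n = 3), and at 4.36 ± 1.21 and 5.88 ± 2.24 in the Zbp1 cohort. The log2 effects of 5xFAD were 0.54 ± 0.32, 0.32 ± 0.33, 0.45 ± 0.33 and 0.45 ± 0.33 in WT and Ripk1 D138N mice (Ripk1 cohort), then in WT and Zbp1 KO mice (Zbp1 cohort). All 4 estimates were above 0, each carrier group overlapped its non-carrier group, and none passed (adjusted p 0.297 to 0.938). The averages over backgrounds were 0.43 ± 0.23 (adjusted p = 0.225) and 0.45 ± 0.23 (adjusted p = 0.401). Mmp14 lay at 10.1 to 18.9 CPM in all 24 libraries, with 5xFAD effects of -0.16 ± 0.19, 0.00 ± 0.19, 0.06 ± 0.19 and 0.21 ± 0.19 in the same order, so it did not follow Mmp2 in size.

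Plat, the tissue plasminogen activator, lay at 33.0 to 47.9 CPM in all 24 libraries. Its 5xFAD effect was 0.16 ± 0.11 (-0.07 to 0.40) in the Ripk1 cohort, with 0.03 ± 0.12 (-0.23 to 0.29) for the Zbp1 cohort. Ripk1 D138N 5xFAD against 5xFAD gave -0.23 ± 0.11 (-0.46 to 0.01, adjusted p = 0.422). The highest library, 47.9 CPM, was in the Ripk1 cohort 5xFAD group, whose other 2 libraries had 36.0 and 40.0, within the range of the other groups.

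The 8 proteases did not form 1 pattern. Over the 24 libraries (log2 CPM centred by cohort, given as a description of libraries that share genotypes and dissections), r between any pair ran from -0.48 (Ece1 and Plat) to 0.51 (Ace and Mmp2), and that of Mme and Ide was -0.10. The genes most like Mmp2 were Ccdc114 (0.81), Fam161a (0.81), Efemp2 (0.80), Vcam1 (0.80) and Slc38a3 (0.79). Of these Efemp2 is an extracellular matrix protein and Vcam1 an adhesion molecule of vessels and choroid plexus. Ece2 was most like Slc38a9 (0.84), Ece1 most like Gm10644 (0.82), Mmp14 most like Gm10602 (0.72) and Plat most like Gm10382 (0.71). The median log2 fold change of the 8 in 5xFAD against WT was -0.07 in the Ripk1 cohort, where that of all genes was 0.02, and 0.04 in the Zbp1 cohort, where that of all genes was 0.

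**Figure D5:**
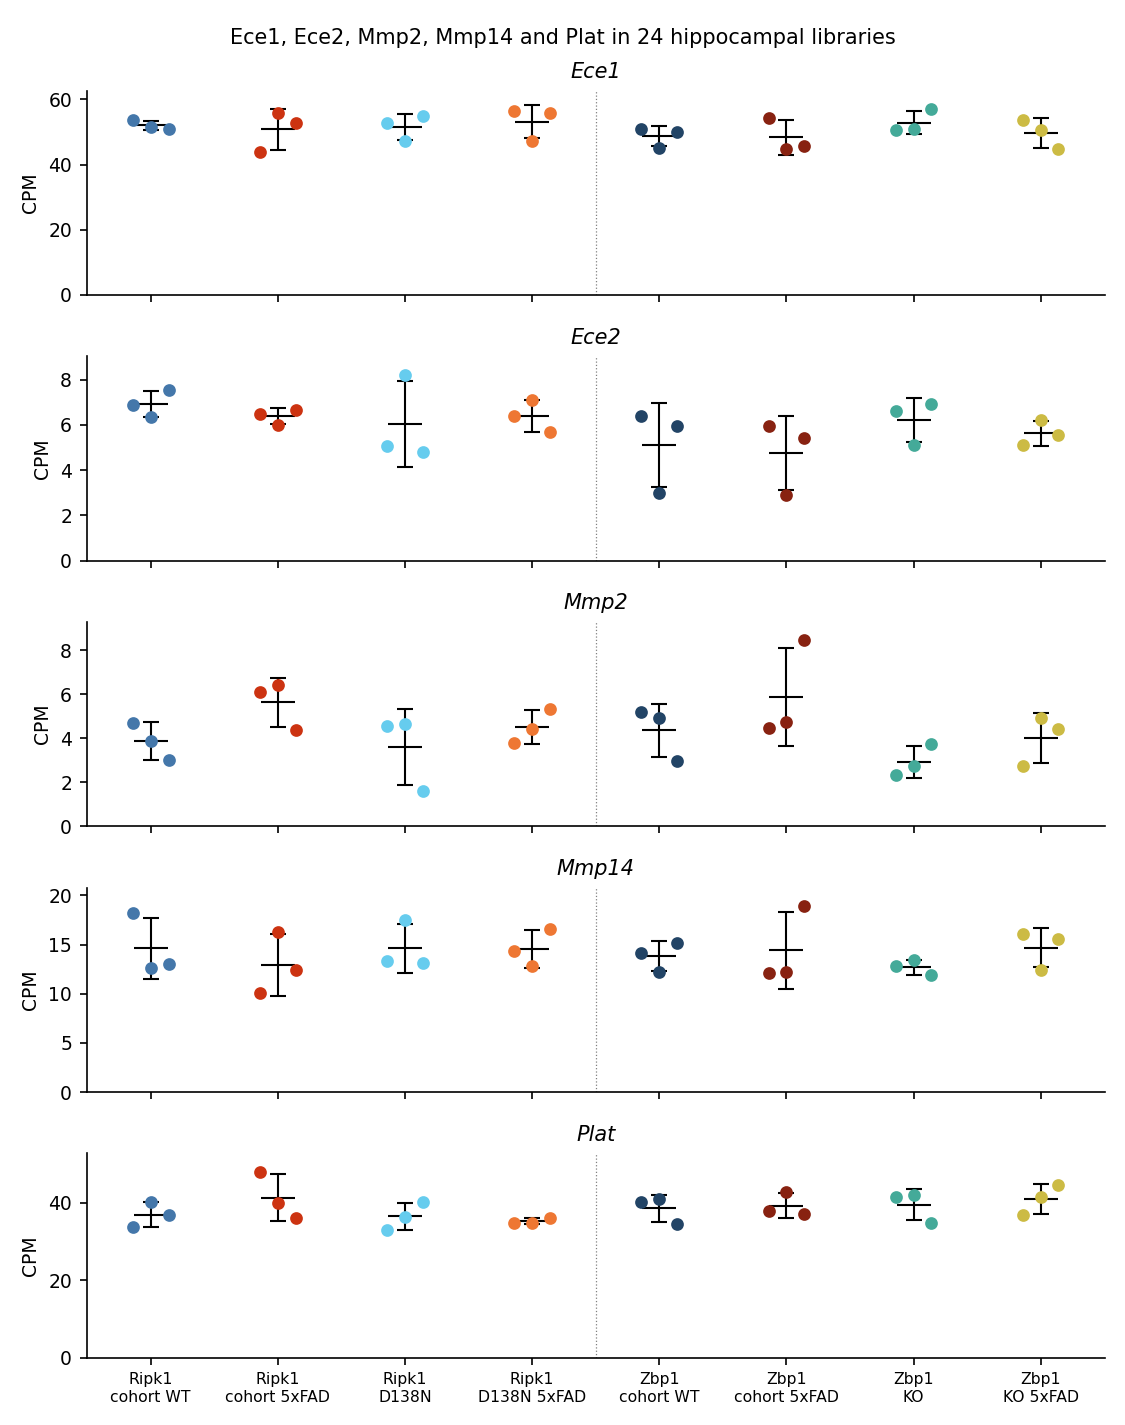
CPM of Ece1, Ece2, Mmp2, Mmp14 and Plat (1 panel each, vertical axes linear from 0) in 24 hippocampal libraries by genotype group (horizontal axis; 3 points per group, bars for mean and SD, dotted line between cohorts). Carrier and non-carrier groups of a background overlap in every panel: Ece1 spans 43.8 to 57.0 CPM, Plat 33.0 to 47.9, Mmp14 10.1 to 18.9 and Mmp2 1.62 to 8.45.

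Of other enzymes linked to the breakdown of amyloid-beta, directly or through plasmin, 4 rose in 5xFAD. Of a list of 14, 12 were tested (Mmp3 and Plg, the plasminogen that Plat acts on, did not pass the filter on low counts), and 4 rose and 0 fell in 5xFAD of each cohort, where 8.11% and 3% of all genes were called higher. They were Plau (urokinase, the other plasminogen activator), the lysosomal cathepsins Ctsd and Ctsb, and the lysosomal peptidase Tpp1. Plau went from 3.23 ± 0.525 to 18.1 ± 3.46 CPM in the Ripk1 cohort (log2 2.49 ± 0.17, adjusted p = 5.08e-07) and from 4.08 ± 1.07 to 20.2 ± 7.93 in the Zbp1 cohort (2.35 ± 0.27, adjusted p = 0.00013). Ctsd, the cathepsin D gene, rose by 2.06 ± 0.14 and 2.20 ± 0.23, Ctsb by 0.86 ± 0.07 and 0.93 ± 0.14, and Tpp1 by 0.35 ± 0.07 and 0.42 ± 0.10. The list medians were 0.10 and -0.02, against 0.02 and 0.00 over all genes, and 5 and 6 of the 12 had an unadjusted p under 0.05 (29.9% and 12% of all genes). With Ripk1 D138N 3 of the 12 rose in carriers (Plau, Ctsd and Ctsb), and with Zbp1 KO 2 did (Plau, 2.01 ± 0.26, and Ctsd, 1.61 ± 0.23), against 3.12% and 1.18% of all genes called higher.

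Microglia markers moved with these 4 genes. In the Ripk1 cohort 8 of 8 were called higher in 5xFAD (summed level 253 to 351 CPM in WT, 949 to 993 in 5xFAD), and in the Zbp1 cohort 7 of 8 (313 to 382 and 808 to 1390 CPM). C1qa, a complement gene of microglia, rose by 2.81 ± 0.16 and 2.42 ± 0.20. The part of microglia number in the rise of Plau, Ctsd, Ctsb and Tpp1 was not tested. None of the 12 enzymes was called by edgeR between a mutant 5xFAD group and 5xFAD, and 2 (Ripk1 D138N) and 4 (Zbp1 KO) had an unadjusted p under 0.05, against 12.3% and 8.81% of all genes. Their point estimates for Zbp1 KO 5xFAD against 5xFAD were -1.05 ± 0.22 for Ctsd (unadjusted p = 0.000352, adjusted p = 0.179) and -0.81 ± 0.25 for Plau (adjusted p = 0.442), with microglia markers at a list median of -0.84, 0 of 8 called by edgeR and 8 of 8 at an unadjusted p under 0.05, as for 8.81% of all genes (summed level 576 to 702 CPM in Zbp1 KO 5xFAD).

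Inhibitors, activators and receptors of the proteases formed a list of 14, all tested. In the Ripk1 cohort 6 rose and 1 fell in 5xFAD (8.11% and 8.02% of all genes did), with a list median of 0.39. In the Zbp1 cohort 5 rose and 0 fell (3% of all genes were called higher), with a median of 0.54. Astrocyte markers moved with the list: 4 of 6 were called higher in the Ripk1 cohort (summed level 2000 to 2420 CPM in WT, 4430 to 4580 in 5xFAD) and 3 of 6 in the Zbp1 cohort (2290 to 2590 and 4240 to 6210 CPM), with Gfap, the astrocyte intermediate filament, at 2.69 ± 0.15 and 2.46 ± 0.17. Their part, and that of the microglia markers, in the list's values was not tested. Serpina3n, a serine protease inhibitor of reactive astrocytes, rose by 2.39 ± 0.14 (adjusted p = 1.68e-07) and 1.90 ± 0.22 (adjusted p = 0.000136). Serpine2, an inhibitor of Plat and Plau, rose by 0.58 ± 0.07 and 0.60 ± 0.13, and Plaur, the urokinase receptor, by 2.70 ± 0.40 and 3.20 ± 0.47. Anxa2, a cell surface receptor of Plat, was called higher in both cohorts, its partner S100a10 (0.99 ± 0.14) in the Ripk1 cohort, and A2m (1.80 ± 0.40), a general protease trap, in the Zbp1 cohort. The 1 that fell was Serpini1, neuroserpin, the neuronal inhibitor of Plat, which went from 223 ± 32.2 to 142 ± 28.0 CPM in the Ripk1 cohort. The tissue inhibitors of metalloproteinases Timp1, Timp2 and Timp3 were not called in either cohort: Timp3 stood at -0.61 ± 0.24 (Ripk1 cohort) and 0.38 ± 0.15 (Zbp1 cohort). None of the 14 was called by edgeR between a mutant 5xFAD group and 5xFAD, and 3 (Ripk1 D138N) and 6 (Zbp1 KO) had an unadjusted p under 0.05, against 12.3% and 8.81% of all genes.

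Peptides that the proteases cut, with their receptors, made a list of 14 of which 13 were tested (Agtr1b did not pass the filter). In the Ripk1 cohort 1 rose (Igf1, a growth factor and Ide substrate, 1.24 ± 0.18) and 1 fell (Agt, angiotensinogen, the precursor of the Ace substrate, -0.54 ± 0.13, adjusted p = 0.0163), shares near those of all genes, 8.11% called higher and 8.02% called lower. In the Zbp1 cohort Igf1 (1.80 ± 0.23) and the endothelin receptor Ednrb (0.37 ± 0.09, adjusted p = 0.0422) rose and 0 fell, with 3% of all genes called higher. Sst, the interneuron peptide somatostatin, was at -0.12 ± 0.13 in the Ripk1 and -0.64 ± 0.18 (adjusted p = 0.0857) in the Zbp1 cohort. Averaged over backgrounds of the Zbp1 cohort it fell (-0.61 ± 0.13, adjusted p = 0.0093), as did Npy (-0.63 ± 0.15). The neprilysin substrates Penk and Tac1 were called in neither 5xFAD against WT comparison.

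RNA immunoprecipitation with an antibody to ZBP1 gave 1 input and 1 immunoprecipitate (IP) library each from WT and 5xFAD hippocampus, so the values describe those libraries and no test was made. The proteases had 8 to 90 counts per library. IP over input, each as CPM, ran in WT from 0.724 (Plat, 95% counting interval 0.355 to 1.41) to 1.40 (Mmp14, 0.881 to 2.23), where the median over 19599 entries with at least 20 counts was 0.887. In 5xFAD it ran from 0.336 (Plat, 0.134 to 0.742) to 1.23 (Mme, 0.818 to 1.85), where the median over 20285 entries was 0.765. For Mme the ratio was 0.746 (0.490 to 1.12) in WT, from 37 IP and 77 input counts. No protease had an interval wholly above 1 in either genotype. In 5xFAD the intervals of Ide, Ece1, Ace and Plat lay wholly below 1, as did the median of all entries (0.765). The share of all entries with such an interval was not computed, so this is not read as particular to the proteases. Of these intervals, that of Plat also lay below the median of all entries. The interval of Mme in 5xFAD (0.818 to 1.85) spanned 1 and lay wholly above that median of 0.765. Intervals cover counting error only.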

How the data were processed

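Hippocampal RNA of 8 genotype groups and 4 RNA immunoprecipitation libraries were used. The authors deposited counts, whole numbers of reads per gene, for each cohort and for the immunoprecipitation. Per the submitters' processing notes, which name HISAT2, edgeR 4.0.16 and DESeq2 1.42.1 as tools, builds mm10 (GRCm38) and mm39 (GRCm39) carry no stated role, so no coordinates are given. How reads were counted, and whether by strand, is not given in the sources used here. The authors' deposited tables also hold a log2 fold change and an adjusted p-value per gene, per the file headers. Of 55487 gene IDs, 55141 matched a symbol. Groups came from sample titles.

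Computed here with R 4.3.3: the 12 libraries of a cohort were fitted together (edgeR 4.0.16, TMM, filterByExpr by genotype, quasi-likelihood test, 1 mean per genotype), 21376 genes in the Ripk1 and 21274 in the Zbp1 cohort, and p was adjusted over all of them (Benjamini-Hochberg, threshold 0.05). SE is the absolute log2 fold change divided by the root of F. Correlations between genes used log2 CPM with a prior count of 2 and were not permuted. Those with the choroid plexus sum used log2 CPM without a prior count and 100000 permutations. The script was tested on simulated data. DESeq2 1.42.0, other scaling, no filter, a replicate block, marker levels as covariates and left-out libraries were alternatives. Replicate pairs differed beyond sampling noise (7.28 to 78.1 chi-square units for each degree of freedom). Genes named are the 8 proteases, up to 4 called genes with the smallest p per list, 5 genes most like each protease, and checks; others (further called or uncalled list genes and neighbours of Ide) were chosen after their values were seen. Proteases and lists were chosen with earlier results of these data known. The authors' heat-map scores and immunoprecipitation comparisons were not used here. Some genes of the lists are counted but not reported by name here.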

Additional observations from a re-analysis of the deposited data

How the results depend on the processing

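Of 1683 values under alternatives (counts of proteases called and the fold change of each protease in each comparison), 1644 kept their call; 185 of these changed sign while called in neither fit. The 5xFAD effect on Mme in the Ripk1 cohort kept its call under 11 alternatives (-2.06 to -1.59) and lost it with the neocortex and subiculum level as a covariate (-1.05, added after seeing the data), where the count of proteases called was 0, as it was for carriers of that cohort (Mme -0.73). Carriers of the Zbp1 cohort had 0 called, and 1 with DESeq2, 1 with the choroid plexus covariate, 1 with the replicate block, 1 without WT 2 and 5xFAD 2 together and 2 without a filter on low counts. Ripk1 D138N 5xFAD against 5xFAD had 1 with DESeq2 and 2 without a filter. Without a filter 1 was called in 5xFAD against WT of the Zbp1 cohort, 1 in Zbp1 KO 5xFAD against 5xFAD, 1 in Zbp1 KO 5xFAD against Zbp1 KO, and 2 in Zbp1 KO against WT (Ide at 7.38e-08 and Ace at 0.000469); the cause was not tested. Leaving out 1 library at a time gave 1 to 2 called in 5xFAD against WT and 1 to 2 in carriers of the Ripk1 cohort (2 without WT 2, Ide joining Mme), 0 to 1 in carriers of the Zbp1 cohort (Mme without 5xFAD 3, -1.01; Ace without WT 2, 2.14) and 0 to 1 in Ripk1 D138N 5xFAD against 5xFAD (Mme without Ripk1 D138N 5xFAD 2). Correlations of deviations between same-numbered libraries were -0.22 to 0.24 in the Ripk1 and -0.11 to 0.40 in the Zbp1 cohort (18 pairs each, 5 and 6 of them above 0.1). Between differently numbered libraries they were -0.30 to 0.21 and -0.34 to 0.21 (36 pairs each, 6 and 3 above 0.1). The medians were 0.03 against -0.01 in the Ripk1 cohort and 0.07 against -0.04 in the Zbp1 cohort, so same-numbered libraries were slightly more alike. The replicate block changed the call of Mme in carriers of the Zbp1 cohort (-0.82, adjusted p = 0.0408) and no other. Depth limits Mme most in 5xFAD 1 of the Ripk1 cohort (26 counts) and 5xFAD 1 of the Zbp1 cohort (36).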
